A study of Rattus norvegicus with 15 samples.

Results

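High dietary salt was compared with normal dietary salt in the cystic kidney cortex of PCK rats, by counting mature microRNAs (miRNAs) in 5 small RNA libraries from rats on 4% NaCl chow and 5 from rats on 0.4% NaCl chow. These are 10 of the 15 libraries of the study, chosen by the diet in their labels, and the other 5 came from rats on 0.01% NaCl. Every miRNA name in the count table was a member of the comparison, 600 in all, with 445 rat names and 155 names first given in other species. All animals were PCK (PCK/CrljCrlPkhd1pck/CRL) rats, which carry a mutation of Pkhd1, the gene of the ciliary protein fibrocystin, and develop kidney cysts like those of human autosomal recessive polycystic disease. No library came from a rat without the mutation, so each diet is compared within cystic kidneys only. The rats were bought at 4 weeks of age, moved to Dyets chow at 6 weeks and kept on it for 8 weeks, after which the kidneys were flushed and the cortex was frozen. The labels give no other treatment. They describe libraries made from pooled RNA (2 to 3 rats a pool, 2 pools a diet), although 5 samples are listed for each diet. They do not tie a library to an animal or a pool, so all spreads and p-values below measure the variation between libraries, which may be technical or shared within a pool.

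A mature miRNA is a short RNA cut from one arm (5p or 3p) of a hairpin precursor and loaded into an Argonaute protein. It pairs with messenger RNAs mainly through its seed, bases 2 to 8, and lowers their translation or stability, so names with the same seed are expected to share targets. In kidney, miR-192, miR-194, miR-204 and miR-10a are known as tubule or epithelial miRNAs, the miR-30 family is abundant in podocytes and tubules, miR-21 rises in injured and fibrotic kidney, and miR-142, miR-150, miR-155 and miR-223 are leukocyte miRNAs. Several of these have been linked to renal sodium handling.

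The sequences of the abundant names are shown first, because a few seed families carried most of the reads. They are RefSeq sequences (rat assembly GRCr8), written 5′ to 3′ with the seed in capitals. The first 4 are the most abundant rat names that do not share a seed with each other. The next 5 add the miR-30, miR-26 and let-7 families, whose 5p names share a seed within each family. The last 5 are names that the results turn on.
miR-10a-5p: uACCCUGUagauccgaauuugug
miR-22-3p: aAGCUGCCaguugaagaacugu
miR-192-5p: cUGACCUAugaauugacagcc
miR-30a-5p: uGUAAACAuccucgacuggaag
miR-30e-5p: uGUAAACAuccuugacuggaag
miR-30c-5p: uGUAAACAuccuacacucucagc
miR-26a-5p: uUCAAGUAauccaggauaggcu
miR-26b-5p: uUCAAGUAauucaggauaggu
let-7a-5p: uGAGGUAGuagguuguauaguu
miR-21-5p: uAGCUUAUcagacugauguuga
miR-16-5p: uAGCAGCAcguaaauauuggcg
miR-126a-3p: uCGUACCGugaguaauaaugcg
miR-125a-5p: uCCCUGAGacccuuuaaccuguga
miR-125b-5p: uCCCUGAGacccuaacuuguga
In GRCr8, miR-10a-5p lies at chr10:81779730-81779752 on the plus strand, miR-22-3p at chr10:60805387-60805408 (plus), miR-192-5p at chr1:212994232-212994252 (plus), miR-21-5p at chr10:71902653-71902674 (minus) and miR-126a-3p at chr3:29813219-29813240 (plus). Of the 445 rat names, 403 had a RefSeq sequence.

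The 4% NaCl libraries held 4167498 to 5420830 counted reads and the 0.4% NaCl libraries 4789739 to 7384275, a difference within the spread between libraries (exact two-sided permutation test over the 252 splits, p = 0.103; adjusted p = 0.516 over 5 library measures). miR-10a-5p alone took 23.6 to 25.7% of the reads on 4% NaCl and 18.5 to 31.2% on 0.4% NaCl. Within a diet no pair of libraries agreed within counting error. Levels below are scaled CPM, that is, CPM computed on TMM-adjusted library totals. Fold changes come from 1 edgeR quasi-likelihood fit of the 519 names that passed a filter on low counts, and are given as log2 of 4% over 0.4% NaCl with a 95% interval. A name is said to have held within 1.5-fold when its whole interval lay inside 0.58 on the log2 scale in both directions, which bounds the change, whereas a p that misses the threshold does not.

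No miRNA name was called different between 4% and 0.4% NaCl (0 of 519, 0% at a Benjamini-Hochberg adjusted p under 0.05; smallest adjusted p = 0.449). Without adjustment 27 names, 5.2%, had p under 0.05, of which 22 (4.24%) were higher on 4% NaCl and 5 (0.963%) lower. DESeq2 and limma-voom also called 0 names, with 33 and 27 names at an unadjusted p under 0.05. The authors' deposited tables of the same comparison likewise list 0 names at an adjusted p under 0.05, with a smallest value of 1 from DESeq, 0.424 from DESeq2 and 0.544 from edgeR. In simulated counts with the depth and spread of these libraries, 55 of 67 names changed 2-fold were called and 26 of 67 changed 1.5-fold. Another 66 names were changed by 2 on the log2 scale, and 314 were left unchanged. So large a share of changed names eases the adjusted threshold. The rates therefore overstate detection where few names change.

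What the libraries do give is a bound on the change of most abundant names. Of the 519 names tested, 216, or 41.6%, held within 1.5-fold and 399, or 76.9%, within 2-fold. An equivalence test at the 1.5-fold margin, adjusted over all names, was passed by 204 names (39.3%), and at the 2-fold margin by 424 (81.7%). The share depended on abundance. Among the 67 names with a mean of 1000 scaled CPM or more, which took 95.9% of the summed level, 59 (88.1%) held within 1.5-fold, and their median interval reached 0.24 on the log2 scale to each side of the estimate. Between 100 and 1000 scaled CPM 64 of 100 names held, between 10 and 100 it was 86 of 173, and under 10 it was 7 of 179, with median half-widths of 0.36, 0.45 and 0.68. For most names under 10 scaled CPM the interval is wider than 1.5-fold to each side, so a change of that size was not detectable there.

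**Figure D1:**
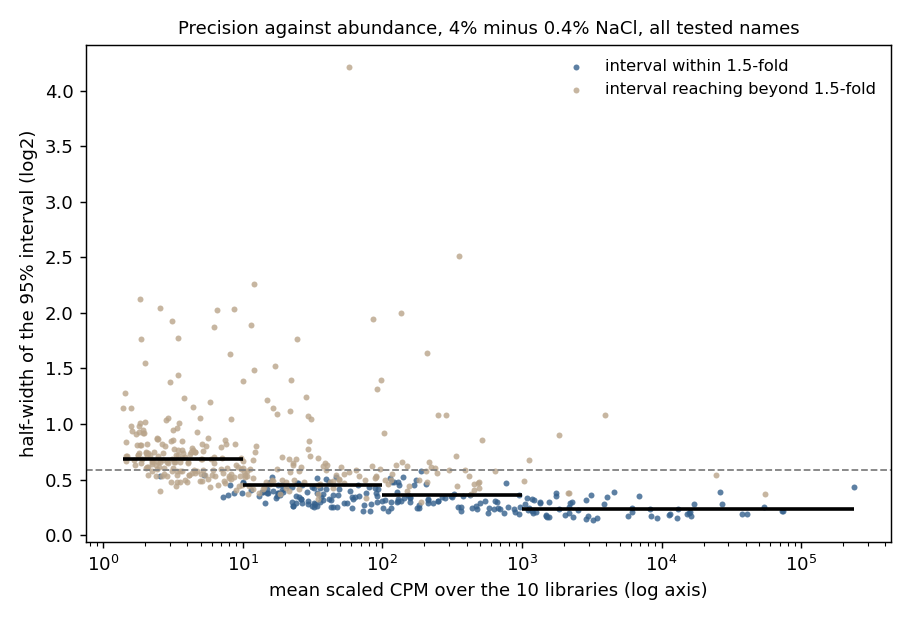
Half-width of the 95% interval of the log2 fold change (4% over 0.4% NaCl) against mean scaled CPM over the 10 libraries on a log axis, 1 point per tested name; black lines are the medians of 4 abundance classes and the dashed line is 1.5-fold. The median half-width is 0.68 under 10 scaled CPM and 0.24 at 1000 and over.

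The 25 most abundant names made up 86.4% of the summed level, and 23 of them held within 1.5-fold; 22 also passed the adjusted equivalence test, the exception among the 23 being miR-143-3p. The most abundant, miR-10a-5p, an epithelial miRNA from within the Hoxb gene cluster, had 227880, 225504, 246342, 213984 and 250267 scaled CPM on 4% NaCl, against 312705, 237403, 324436, 175767 and 166959 on 0.4% NaCl. Every 4% library lay inside the range of the 0.4% libraries. Its log2 fold change was -0.06 (-0.49 to 0.37), so a level on 4% NaCl below 0.71 or above 1.29 times that on 0.4% NaCl lay outside the interval. That bound is loose for so many reads, and it passed 1.5-fold under several of the alternatives tried: over 21 of them the farthest end of the interval ran from 0.33 to 0.69, and the equivalence call was lost in 7.

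miR-22-3p, a miRNA found in most tissues, had 68650, 71375, 72434, 70107 and 77460 scaled CPM on 4% NaCl, against 80822, 75927, 63784, 74774 and 84094 on 0.4% NaCl. The 2 ranges overlapped over most of their length and the log2 fold change was -0.08 (-0.30 to 0.14). miR-26a-5p, which restrains growth genes in many tissues, had 40816, 44490, 47522, 40540 and 42834 scaled CPM on 4% NaCl, against 40784, 39314, 34646, 39064 and 41501 on 0.4% NaCl. Its estimate lay on the high side (0.15, -0.04 to 0.34), with the ranges overlapping at their ends. miR-26b-5p, which shares its seed, had an estimate of -0.07 (-0.28 to 0.13). miR-378a-3p, encoded in an intron of the metabolic coactivator gene Ppargc1b in mouse, had 12815, 13556, 15696, 13388 and 16506 scaled CPM on 4% NaCl, against 20384, 17753, 15354, 14828 and 16868 on 0.4% NaCl. Its interval left out 0 (-0.24, -0.44 to -0.04; edgeR adjusted p = 0.575) while it stayed inside 1.5-fold, and the ranges overlapped.

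**Figure D2:**
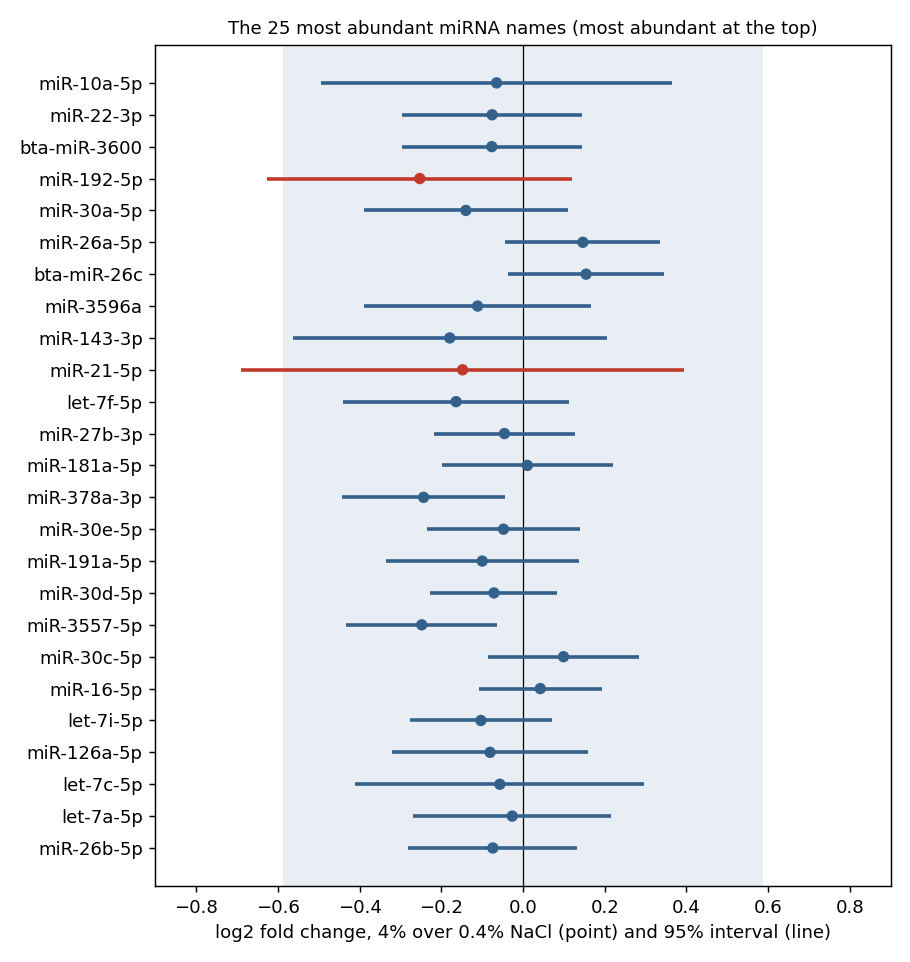
Log2 fold change of 4% over 0.4% NaCl (points) with its 95% interval (lines) for the 25 most abundant names, in order of abundance from the top; the shaded band is 1.5-fold. The intervals of 23 names lie inside the band, and those of miR-192-5p and miR-21-5p, in red, reach beyond it.

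Among names with a mean of at least 100 scaled CPM the 5 narrowest were those of miR-151-3p, miR-126a-3p, miR-16-5p, miR-186-5p and miR-30d-5p. miR-126a-3p, an endothelial miRNA, had 2721, 2898, 2984, 2876 and 2800 scaled CPM on 4% NaCl, against 3046, 2721, 2901, 2642 and 2906 on 0.4% NaCl. The highest of the 10 libraries was 1.15 times the lowest, and the log2 fold change was 0.01 (-0.14 to 0.15). miR-16-5p had 9729, 8960, 9249, 10378 and 8743 scaled CPM on 4% NaCl, against 9155, 8148, 9235, 9963 and 9194 on 0.4% NaCl, with a log2 fold change of 0.04 (-0.11 to 0.19). miR-186-5p (-0.05, -0.20 to 0.10) and miR-30d-5p (-0.07, -0.23 to 0.08) were as closely bounded. miR-151-3p had the narrowest interval of all, yet its estimate was off 0 (-0.13, -0.27 to 0.01), with an unadjusted p of 0.0605 in the edgeR fit. Of 15 names listed as steady across tissues, 13 held within 1.5-fold, with a median log2 fold change of -0.07 against -0.02 over all tested names. The other 2 were the arms miR-423-5p (-0.10, -0.69 to 0.48) and miR-423-3p (-0.05, -0.63 to 0.54). Most of the list had 1000 scaled CPM or more. The share of the list that held, 86.7%, was near the 88.1% of all names in that class.

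**Figure D3:**
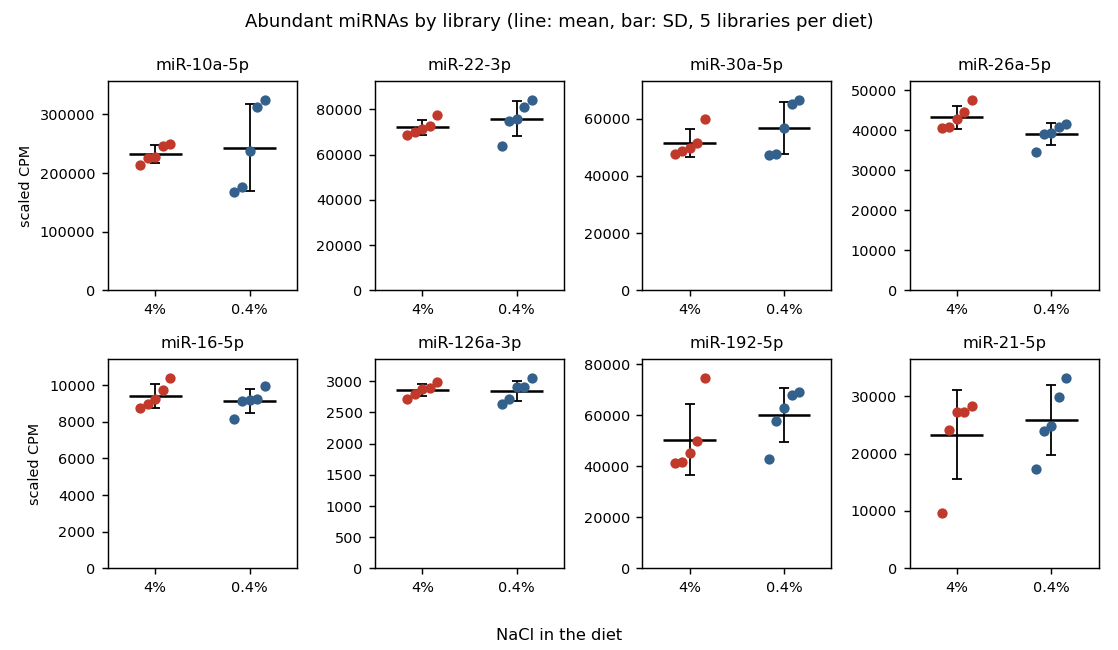
Scaled CPM of 8 abundant miRNAs in each library, 4% NaCl (red, left) and 0.4% NaCl (blue, right); lines are means and bars are SD over 5 libraries. miR-126a-3p and miR-16-5p stay in a narrow range, miR-10a-5p spreads more widely on 0.4% NaCl, and 1 library on 4% NaCl stands apart for miR-192-5p (74510) and miR-21-5p (9655).

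Names were then read as families. The counts of held names in the families and lists below stand beside 41.6% held within 1.5-fold over all tested names. The share was 88.1% at 1000 scaled CPM or more and 64% between 100 and 1000. Most let-7 names had 1000 scaled CPM or more, so a high count there cannot be told apart from abundance. The let-7, miR-181 and miR-16 groups below each share a seed. The miR-30, miR-10 and miR-99, miR-200 and miR-17 groups also hold arms or names with other seeds. In the let-7 family, known for its role in differentiation, all 8 tested names held within 1.5-fold, with estimates from -0.16 for let-7f-5p to 0.01 for let-7e-5p. Their summed level was 42777 ± 4027 scaled CPM on 4% NaCl and 45736 ± 8575 on 0.4% NaCl (SD, n = 5 each). That sum leaves out miR-3596a, the reverse complement of let-7a-5p over all 22 bases. miR-3596a had a mean of 157121 reads over the 15 libraries, against 34718 for let-7a-5p, and their counts cannot be read as separate miRNAs. The sum may therefore fall well short of the level of the family. miR-3596a also held within 1.5-fold (-0.11, -0.39 to 0.17). In the miR-30 family 10 of 11 arms held, and the eleventh was the scarce miR-30b-3p (-0.30, -0.68 to 0.09). The 3 names with the seed GUAAACA that are printed above, miR-30a-5p, miR-30e-5p and miR-30c-5p, summed to 78308 ± 7423 scaled CPM on 4% NaCl and 83277 ± 9394 on 0.4% NaCl, and their estimates were -0.14 (-0.39 to 0.11), -0.05 (-0.24 to 0.14) and 0.10 (-0.09 to 0.28). The 4 miR-181 names (seed ACAUUCA) all held, with estimates from -0.05 to 0.01. With the miR-16 seed AGCAGCA 2 of 5 names held, with estimates from 0.02 to 0.52. All 7 names of the miR-10 and miR-99 list held, and 6 to 7 did as each library was left out. That list also holds miR-125a-5p and miR-125b-5p, which have the seed CCCUGAG and belong to neither family. In the miR-200 family, which keeps epithelial cells in their state, 5 of 8 arms held, and 8 without library 5 of the 0.4% diet; miR-200b-3p had 2156 ± 174 scaled CPM on 4% NaCl and 2200 ± 130 on 0.4% NaCl (SD, n = 5 each), and its log2 fold change was -0.03 (-0.23 to 0.17). In the miR-17 family and its clusters, which promote cyst growth in mouse models of polycystic kidney disease, 9 of 13 names held, with a median that ran from -0.12 to 0.09 as each library was left out, and the most abundant, miR-92a-3p, had a log2 fold change of -0.01 (-0.40 to 0.37).

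Among the 11 tested names of the kidney epithelium list, 5 held within 1.5-fold and 10 within 2-fold, and 10 of the 11 estimates were negative (median -0.12), as were 285 of all 519. With library totals in place of TMM factors 8 were negative (median -0.05). The median was -0.25 without library 5 of the 4% diet, with 2 names at an unadjusted p under 0.05, and -0.34 without the least typical library of each diet, with 2 names held and 3 at an unadjusted p under 0.05; without library 1 of the 4% diet it was -0.05 and 8 names held. miR-192-5p, a tubule miRNA, was the most abundant name that did not hold. It had 41724, 41130, 45160, 49806 and 74510 scaled CPM on 4% NaCl, against 69099, 62873, 68124, 42740 and 57810 on 0.4% NaCl, and a log2 fold change of -0.25 (-0.63 to 0.12; edgeR adjusted p = 0.963). Library 5 on 4% NaCl was the highest of all 10, while the other 4 libraries on 4% NaCl lay below every library on 0.4% NaCl except its library 4. Without library 5 of the 4% diet the estimate was -0.46 (-0.79 to -0.13, edgeR adjusted p = 0.259). Without both that library and library 4 of the 0.4% diet it was -0.57 (-0.85 to -0.30, edgeR adjusted p = 0.101). With all libraries kept and library totals in place of TMM factors it was -0.19 (-0.51 to 0.14), and miR-192-5p held within 1.5-fold. miR-194-5p, which has a gene beside that of miR-192-5p, had 2212 ± 453 scaled CPM on 4% NaCl and 2379 ± 293 on 0.4% NaCl (SD, n = 5 each) and held (-0.10, -0.40 to 0.19). miR-204-5p, known to be rich in tubules, held as well (0.10, -0.09 to 0.30).

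Of 16 tested names linked to sodium transport or the renin-aldosterone system, 8 held within 1.5-fold and 14 within 2-fold, with 0 called and a median that ran from -0.01 to 0.08 as each library was left out; without the least typical library of each diet 5 held within 1.5-fold, and without library 5 of the 4% diet 4 had an unadjusted p under 0.05. miR-9a-5p had 160, 180, 266, 189 and 151 scaled CPM on 4% NaCl, against 262, 195, 242, 153 and 85.5 on 0.4% NaCl. The ranges overlapped throughout; its log2 fold change of 0.01 had an interval from -0.56 to 0.58, which ends at the 1.5-fold margin. miR-181a-5p, reported to target renin in human kidney, was among the best bounded (0.01, -0.20 to 0.22). miR-27a-3p (0.11, -0.17 to 0.39) and miR-23a-3p (0.09, -0.22 to 0.40) held with wider intervals.

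Of 14 names tied to kidney injury or fibrosis, 3 held within 1.5-fold and 13 within 2-fold. Without library 2 of the 0.4% diet or library 4 of the 4% diet 8 of 14 held within 2-fold. The median of -0.03 had no steady sign: it ran from -0.13 without library 4 of the 4% diet to 0.10 without library 5 of that diet, where 5 names held within 1.5-fold and 4 had an unadjusted p under 0.05. miR-21-5p had 28204, 27200, 24130, 27277 and 9655 scaled CPM on 4% NaCl, against 29794, 23974, 24871, 33095 and 17313 on 0.4% NaCl. The lowest library of each diet stood below the others of that diet, and the remaining 8 overlapped. Its log2 fold change was -0.15 (-0.69 to 0.39), an interval that spans levels from 0.619 to 1.31 times that on 0.4% NaCl; without library 5 of the 4% diet it was 0.04 (-0.31 to 0.38) and held. miR-29a-3p, which represses collagen genes, was well bounded (0.07, -0.10 to 0.24), and miR-29c-3p held too (0.01, -0.29 to 0.30). miR-199a-3p, a fibroblast miRNA, had 2535, 2651, 3093, 2221 and 1232 scaled CPM on 4% NaCl, against 1936, 2198, 1952, 2055 and 1497 on 0.4% NaCl, with an estimate of 0.28 (-0.09 to 0.66). Again library 5 on 4% NaCl was the lowest of the 10.

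The leukocyte list had a median of 0.27 (0.34 with library totals in place of TMM factors). Of its 11 names, 8 had positive estimates, as had 234 of all 519, and 1 held within 1.5-fold and 6 within 2-fold; 0 were called and 2 had an unadjusted p under 0.05. In bulk cortex, more cells of a type and more RNA per cell cannot be told apart. miR-150-5p, a miRNA of mature lymphocytes, had 1844, 1394, 2090, 1298 and 780 scaled CPM on 4% NaCl, against 460, 600, 478, 1292 and 945 on 0.4% NaCl. On 4% NaCl 4 libraries lay above all 5 of the 0.4% diet, and library 5 fell among those. Its log2 fold change was 0.97 (0.30 to 1.65), so the interval excluded 0, but the edgeR p of 0.0084 became 0.449 after adjustment and the name was not called. miR-142-5p, found across blood cells, had 1221, 1372, 1755, 1122 and 616 scaled CPM on 4% NaCl, against 879, 698, 996, 1059 and 601 on 0.4% NaCl, with an estimate of 0.52 (0.04 to 1.01; adjusted p = 0.772). miR-146a-5p was the 1 name that held (-0.18, -0.43 to 0.06), and its estimate was on the other side. The summed level of the 11 names was 2718 to 6212 scaled CPM on 4% NaCl and 3169 to 4777 on 0.4% NaCl, so the groups overlapped. As each library was left out in turn, the median ran from 0.24 to 0.45, with 1 to 5 names at an unadjusted p under 0.05. Without library 5 of the 4% diet the median was 0.43, with 5 of the 11 names at an unadjusted p under 0.05, where 53 of all 523 tested names (10.1%) were. Without the least typical library of each diet it was 0.57, with 6 of 11 names, where 66 of 523 (12.6%) were. Without library 4 of the 0.4% diet alone the median was 0.45, and 0 names were called in any of these.

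Library 5 on 4% NaCl and library 4 on 0.4% NaCl had the lowest mean correlation with the other libraries of their diet (0.971 and 0.973). On 0.4% NaCl the margin was narrow, with 0.974 for library 5. By chi-square per degree of freedom, library 5 on 0.4% NaCl was farther from libraries 1, 2 and 3 of its diet (710, 289 and 735). For library 4 these values were 410, 195 and 518. Library 5 on 4% NaCl was the lowest of its diet for 10 of 11 leukocyte names and for 10 of 14 injury and fibrosis names, and the highest for 1 leukocyte name, miR-342-3p (197 scaled CPM, against 135 to 180.5 in the others on 4% NaCl), and 2 injury names, miR-29c-3p and miR-382-5p. It was also the lowest for 8 of 8 let-7 names and 12 of 13 names of the miR-17 list, and the highest for 24 of 29 Dlk1-Dio3 names. Beyond the names above, miR-142-3p, miR-155-5p, miR-223-3p, miR-21-3p, miR-342-3p and miR-382-5p were looked up after the values of their list mates had been seen. miR-155-5p, an activation-induced leukocyte miRNA, had 28.9 scaled CPM there and 89.0 to 127 in the other libraries on 4% NaCl, against 43.7 to 87.4 on 0.4% NaCl. miR-142-3p had 97.8 there and 213 to 368 in the other libraries on 4% NaCl, against 114 to 212 on 0.4% NaCl. Library 5 on 0.4% NaCl was the lowest of that diet for 6 of 11 leukocyte names, among them miR-155-5p and miR-142-3p but not miR-150-5p, and for 8 of 14 injury and fibrosis names. It was the highest for 23 of 29 Dlk1-Dio3 names. For neither library were such counts taken over all tested names, so no background share stands beside them. Of 15 names listed as steady across tissues, library 5 on 4% NaCl was the lowest for 6 and the highest for 6. For library 5 on 0.4% NaCl these counts were 4 and 4. The lists share names, such as miR-155-5p and miR-146b-5p in the leukocyte and injury lists. The part of any difference in cell makeup between libraries in these results was not tested.

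**Figure D4:**
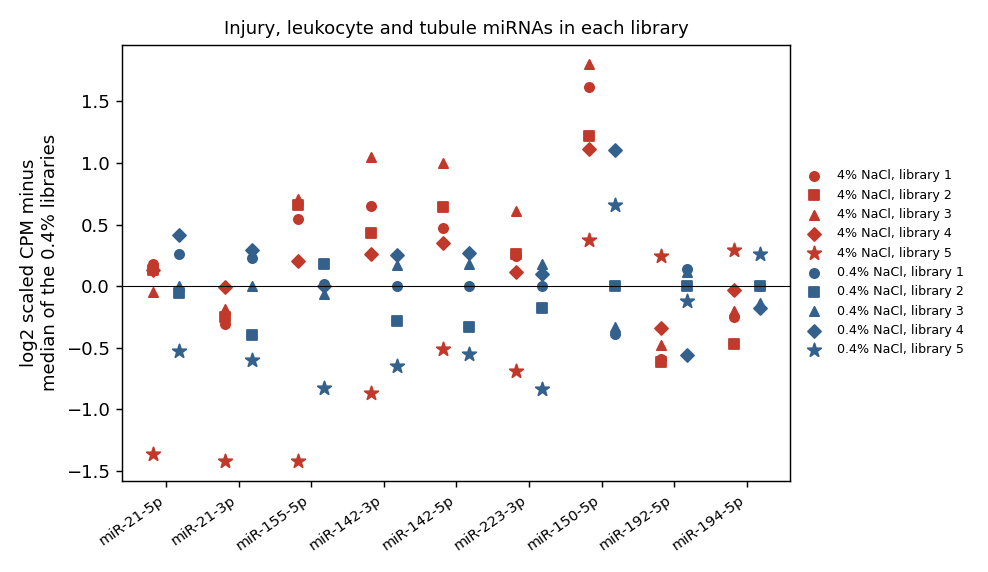
Log2 scaled CPM of 9 miRNAs, chosen from the injury, leukocyte and kidney epithelium lists after their values were seen, in each library relative to the median of the 0.4% NaCl libraries, with 4% NaCl in red on the left of each pair and 0.4% NaCl in blue on the right; symbols mark the libraries. Library 5 on 4% NaCl (red star) is the lowest of the 4% libraries for the 7 injury and leukocyte names shown, which leave out the members that were high there, such as miR-342-3p, and the highest for miR-192-5p and miR-194-5p.

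Markers of other cell types gave the following bounds. In the endothelium list 3 of 4 names held, and the median ran from -0.02 to 0.03 as each library was left out. Of 7 names listed for smooth muscle and fibroblasts, 2 held (1 without library 2, 4 or 5 of either diet) and 7 did so within 2-fold, with a median of 0.22; miR-143-3p, a smooth muscle miRNA, had 24661 ± 2186 scaled CPM on 4% NaCl and 27925 ± 7479 on 0.4% NaCl (SD, n = 5 each), with an estimate of -0.18 (-0.56 to 0.20). The 2 tested red cell names were scarce, and neither held within 2-fold. miR-451-5p had 7.34 to 13.7 scaled CPM on 4% NaCl and 4.06 to 49.6 on 0.4% NaCl. miR-486-5p, also on the red cell list, had no tested rat name. Its human name, hsa-miR-486-5p, was more abundant and is described below (-0.64, -1.10 to -0.17). In the imprinted Dlk1-Dio3 cluster, a set of miRNAs made from a maternally expressed locus, 1 of 29 tested names held within 1.5-fold and 21 within 2-fold, with a median of -0.13 and a median half-width of 0.68. Single libraries decided the direction and the count: without library 5 of the 0.4% diet the median was 0.07 and 20 of 30 estimates were positive, without library 3 of the 4% diet 15 of 30 were positive, and without library 5 of the 4% diet the median was -0.37 and 10 of 30 held within 2-fold. Without the least typical library of each diet 5 of 30 did. The neural and endocrine list had 3 of 8 names held, 0 without the least typical library of each diet, and its median ran from -0.14 to 0.13 as each library was left out.

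The 10 names with the smallest unadjusted p all missed the adjusted threshold, at an adjusted p of 0.449 each. Only 4 names of the 519, 0.771%, had no overlap between the diets: miR-125b-5p, miR-3588 and mmu-miR-1195 were above, and miR-208b-3p below, in all 5 libraries on 4% NaCl. miR-125b-5p, a miRNA of many cell types that shares its seed with miR-125a-5p, had 1040, 1073, 1036, 951 and 1075 scaled CPM on 4% NaCl, against 861, 814, 912, 765 and 932 on 0.4% NaCl. The difference was small and evenly spread (0.27, 0.08 to 0.46), so the same name lay off 0 in the interval and held within 1.5-fold. miR-125a-5p had 6513, 6339, 6391, 5618 and 5957 scaled CPM on 4% NaCl, against 5158, 4796, 4766, 5453 and 6043 on 0.4% NaCl, and a like estimate (0.23, 0.06 to 0.41), with the ranges overlapping.

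miR-208b-3p, a miRNA of slow muscle and heart in mammals, had 2.27, 2.71, 2.92, 2.61 and 2.37 scaled CPM on 4% NaCl, against 3.62, 4.94, 5.02, 4.35 and 4.55 on 0.4% NaCl. The level was a few scaled CPM in every library, and the log2 fold change was -0.80 (-1.28 to -0.33; unadjusted p = 0.00256 in the edgeR fit). miR-760-3p was as scarce, with 1.92, 2.71, 1.28, 1.09 and 1.08 scaled CPM on 4% NaCl, against 3.44, 3.87, 2.21, 4.35 and 2.93 on 0.4% NaCl, and a log2 fold change of -1.04 (-1.69 to -0.38). hsa-miR-486-5p, a name of a miRNA rich in red cells and muscle, had 302, 303, 345, 332 and 498 scaled CPM on 4% NaCl, against 629, 455, 644, 752 and 289 on 0.4% NaCl. The lowest of the 10 was library 5 on 0.4% NaCl and the other 4 of that diet lay above 4 of the libraries on 4% NaCl; the log2 fold change was -0.64 (-1.10 to -0.17). The remaining 4, mmu-miR-5099, hsa-miR-1273g-3p, mmu-miR-1195 and mmu-miR-6239, are names of other species with means below 100 scaled CPM and estimates from 0.51 to 1.51. None of the 10 was called, and none changed sign, under any alternative run.

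**Figure D5:**
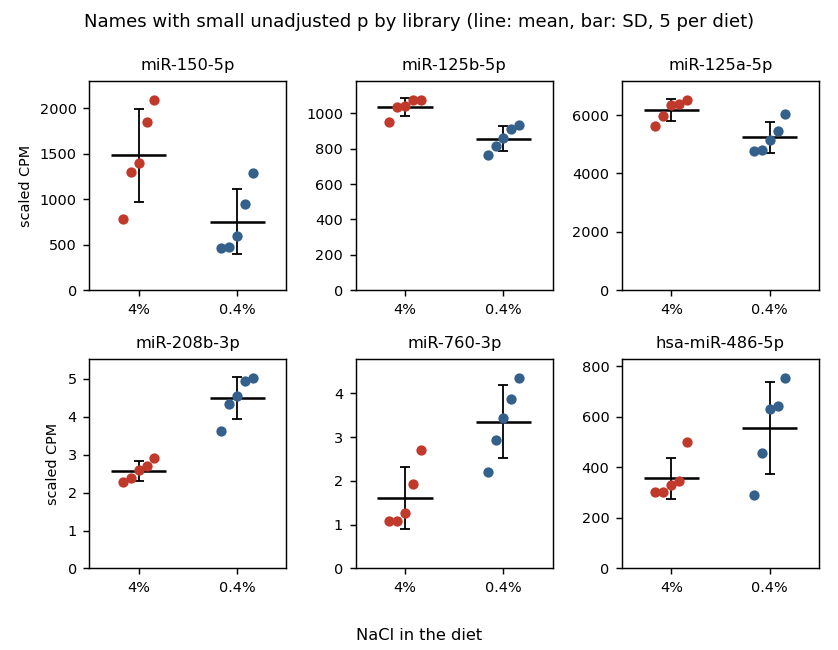
Scaled CPM in each library, 4% NaCl (red, left) and 0.4% NaCl (blue, right), for 5 of the 10 names with the smallest unadjusted p and for miR-125a-5p; lines are means and bars are SD over 5 libraries. The diets do not overlap for miR-125b-5p and miR-208b-3p and overlap for the other 4.

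The widest intervals among names with at least 100 scaled CPM belonged to miR-182, miR-3553, mmu-miR-6240, sha-miR-716b and hsa-miR-3168. miR-182, of a cluster with miR-183 known from sensory organs, had 2170, 4161, 6106, 1535 and 3081 scaled CPM on 4% NaCl, against 9423, 4912, 2810, 4271 and 679 on 0.4% NaCl. The highest library was 13.9 times the lowest, both on 0.4% NaCl, and the log2 fold change of -0.37 had an interval from -1.45 to 0.71. hsa-miR-3168 had 69.9 to 265 scaled CPM on 4% NaCl and 54.1 to 1521 on 0.4% NaCl.

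Some names had counts that cannot be read as separate miRNAs. miR-3596a and let-7a-5p are annotated on opposite strands of chr8:50805219-50805240 (GRCr8), miR-3596a on the minus strand, and are reverse complements of each other over all 22 bases, shown here in capitals because that overlap is why their counts are uncertain.
miR-3596a: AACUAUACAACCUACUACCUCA
let-7a-5p: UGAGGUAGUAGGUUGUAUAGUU
miR-3588: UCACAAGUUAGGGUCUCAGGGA
miR-125b-5p: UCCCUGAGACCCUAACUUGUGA
The same holds for miR-3588 and miR-125b-5p, whose ratio kept an SD of 0.03 on the log2 scale, so these count as 1 observation among the names without overlap. In all, 27 pairs of rat names were reverse complements over 20 or more bases, and in 14 pairs of names the log2 ratio varied with an SD below 0.05; the scarcer names of these pairs held 13.4% of reads. Among the 25 most abundant names, bta-miR-3600 kept a steady ratio to miR-22-3p and bta-miR-26c to miR-26a-5p, and miR-3557-5p is the reverse complement of miR-378a-3p over 21 bases. Their bounds therefore repeat those of their partners. With the scarcer name of each pair left out, 203 of 488 names held within 1.5-fold.

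The balance of the arms of a hairpin does not depend on scaling between libraries. In 66 hairpins with both arms at a mean of 10 scaled CPM or more, log2(5p/3p) differed between the diets by a median of 0.12 in size, and 65 differed by less than 0.5. None was called (0 of 66, 0%, exact two-sided permutation test, smallest adjusted p = 0.838), and 2, or 3.03%, had an unadjusted p under 0.05. The smallest p this test can give over the 252 splits is 0.00794. A single hairpin at that value would miss the adjusted threshold over 66 hairpins, so the 0 calls of this test carry little weight. Under limma, which has no such floor, 0 were called, with 5 at an unadjusted p under 0.05. In 42 hairpins the 5p arm exceeded the 3p arm in all 10 libraries, in 22 the 3p arm exceeded the 5p arm in all 10, and 2 were mixed. These counts include both miR-378a and miR-3557, whose arms are reverse complements of each other, as are arms of miR-203a and miR-203b. The same reads may therefore enter more than 1 hairpin. For miR-21 the mean was 6.75 ± 0.19 on 4% NaCl and 6.62 ± 0.13 on 0.4% NaCl, and for miR-126a 1.47 ± 0.16 on 4% NaCl and 1.56 ± 0.15 on 0.4% NaCl (SD, n = 5 each). The hairpins with an unadjusted p under 0.05 were miR-140, with a mean of -4.22 ± 0.09 on 4% NaCl and -4.50 ± 0.12 on 0.4% NaCl, and miR-30b, with 7.62 ± 0.25 on 4% NaCl and 7.13 ± 0.25 on 0.4% NaCl.

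The 4% libraries were closer to each other than the 0.4% libraries for 48 of the 67 names with 1000 scaled CPM or more (median SD on the log2 scale 0.13 on 4% NaCl and 0.19 on 0.4% NaCl) and for 301 of all 519 names. The share of reads in names of other species showed the same, at 14.0 to 14.3% on 4% NaCl and 11.1 to 15.8% on 0.4% NaCl. These are descriptions, and the difference in spread was not tested.

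The 0.01% NaCl libraries entered the fit above through the filter on low counts, the TMM scaling and the estimate of spread. With only the 2 diets, 503 names were tested and 223 held within 1.5-fold. In the same fit of 15 libraries, 106 of 519 names (20.4%) were called for 0.01% against 4% NaCl. For 0.01% against 0.4% NaCl 87 (16.8%) were called. These comparisons share libraries with that of 4% and 0.4% NaCl. The names held within 1.5-fold were 152 (29.3%) for 0.01% against 4% NaCl and 155 (29.9%) for 0.01% against 0.4% NaCl. Of the 216 names that held within 1.5-fold between 4% and 0.4% NaCl, 33 were called for 0.01% against 4% NaCl and 26 for 0.01% against 0.4% NaCl. miR-143-3p was among them: its log2 fold change was -0.18 for 4% against 0.4% NaCl, 0.83 (0.44 to 1.21; edgeR adjusted p = 0.00513) for 0.01% against 0.4% NaCl and 1.01 (0.62 to 1.39; edgeR adjusted p = 0.00281) for 0.01% against 4% NaCl. miR-126a-3p and miR-16-5p lay within 0.06 of 0 in all 3 comparisons.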

How the data were processed

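Small RNA from kidney cortex was, per the labels' protocols, extracted with Trizol and sequenced from TruSeq libraries on the Illumina HiSeq platform. The authors deposited raw read counts per mature miRNA name, with a sheet that gives each name, and log2 fold changes and p-values of their own comparisons, per the file headers. The sign of the authors' log2 values is 0.4% over 4% NaCl. Per the submitters' processing notes, cutadapt, Bowtie and DESeq were used. Neither a build, a miRNA database nor the handling of multiply matching reads is given in the sources used here, and a read counted under several names would make their values repeat each other. The 90 per-sample columns inside the authors' comparison tables were not used.

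Libraries were grouped by the diet label, and numbers only name them. The deposited counts were fitted in edgeR 4.0.16 (R 4.3.3): filterByExpr left out 81 of 600 names, TMM scaling, robust quasi-likelihood, 3 diet means over 15 libraries with 12 residual degrees of freedom, Benjamini-Hochberg adjustment over 519 names. Standard errors came from the weighted design and the moderated quasi-dispersion, with a t quantile for the 95% interval, and equivalence from 2 one-sided tests. Scaled CPM are the counts in CPM of the TMM-scaled total. DESeq2 1.42.0 and limma 3.58.1 were alternatives. Arm ratios and library measures had exact two-sided permutation tests (252 splits, smallest p 0.00794). The steps were tested on simulated data, where 94.6% of the 95% intervals of unchanged names held the true value and 7 of 314 unchanged names were called. For changed names the share was 91.0% at 1.5-fold, 94.0% at 2-fold and 92.4% at a log2 change of 2. Names were drawn independently, without shifts that many names of a library share, so coverage in the real libraries may be lower. Intervals include the spread between libraries; depth of 4167498 to 7384275 reads limits names under 10 CPM.

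Named were the 25 most abundant names, the 10 smallest p, the 5 narrowest and 5 widest intervals at 100 CPM or more, up to 4 abundant members of each of 18 lists, miR-9a-5p and miR-21-5p; other names are members of a list, a seed family or a read-sharing pair, or, for arm ratios, had an unadjusted p under 0.05, and were added after their values were seen. The comparison, the lists and the rule were chosen with earlier results of these data known. The lists hold no independent evidence, and the 2 names of the liver list, like let-7g-5p, are not analysed here. The 2 names of the hypoxia list had 1 held within 1.5-fold, and of 3 tested striated muscle names 2 held (0 to 1 and 1 to 2 as each library was left out).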

Additional observations from a re-analysis of the deposited data

Results flagged for a closer look

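Of 156 groups of 5 libraries (78 named miRNAs on 2 diets), 10 held 1 library that stood far from the others by Dixon's criterion, and chance gives about 1 in 20. Of the 10, 6 were library 5 on 4% NaCl. It was high for miR-192-5p (74510 scaled CPM, others 41130 to 49806), miR-30e-5p (18023, others 13635 to 14757), hsa-miR-486-5p (498, others 302 to 345) and miR-200b-3p (2459, others 2034 to 2129). It was low for miR-21-5p (9655, others 24130 to 28204) and miR-93-5p (525, others 673 to 724). The remaining 4 were library 4 on 0.4% NaCl, which was low for miR-30d-5p (11920 scaled CPM, others 13370 to 13846) and high for mmu-miR-5099 (14.0, others 5.87 to 7.03), mmu-miR-6240 (530.1, others 112 to 233) and sha-miR-716b (453, others 56.2 to 103).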

How the results depend on the processing

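No paired analysis was possible because the labels give no replicate numbers. Under 22 alternatives 0 names were called in each, and the counts held within 1.5-fold and 2-fold, the median half-width and the equivalence count stayed within 1.5 times their main values, with 1 exception. Without the least typical library of each diet (chosen after seeing the data) 129 names passed the equivalence test instead of 204, 173 held within 1.5-fold, 66 names had an unadjusted p under 0.05 and the smallest adjusted p was 0.0688, for miR-150-5p; the cause was not tested. On 0.4% NaCl library 4 was the least typical by a narrow margin (mean correlation 0.973, against 0.974 for library 5). Leaving out library 5 of the 4% diet gave 53 names at an unadjusted p under 0.05. Leaving out each library in turn, the difference between the diets (4% minus 0.4% NaCl, percentage points of reads) ran from -0.22 to 0.94 for names of other species, from -1.16 to 2.03 for miR-10a-5p and from -1.84 to 0.31 for the 5 most abundant names. With library totals only, 216 names held, of which 195 were among the main 216. Over all alternatives 58 of the 78 named miRNAs kept their side of the equivalence threshold. Depth limits names under 10 scaled CPM.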
